A study of Mus musculus with 14 samples.

Results

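Adipocyte progenitors are the stromal cells of fat from which new adipocytes form. The 10 genes described here encode proteins of their surface and of the matrix around them, and are Pdgfra, Dpp4, Pi16, Cd34, Dlk1, Thy1, Cd55, F3, Fap and Dcn. They were chosen by name, and each was read from the array row that the platform annotation pairs with that symbol alone. All 10 were measured, each by 1 probe set, out of 19937 genes that have such a row.

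Whole epididymal fat pads, a visceral depot, came from 14 male C57BL6/J mice, 1 array per labelled sample. The groups were 4 EKO mice on Western diet (EKO_HFD), 4 EKO mice on normal diet (EKO_ND), 3 wild-type mice on Western diet (WT_HFD) and 3 wild-type mice on normal diet (WT_ND). The labels tie EKO to apolipoprotein E without saying how the allele was made, and give the Western diet 42% milk fat. Feeding lasted 24 weeks in each group and began when the mice were 8 weeks old, and the labels call the replicates biological. The Apoe row was lower in EKO pads than in WT pads by the labels' genotype, with log2 fold changes of -3.36 ± 0.16 (SE, adjusted p = 4.6e-08) on HFD and -3.67 ± 0.16 (adjusted p = 1.32e-08) on ND. Differences below are on the log2 scale with their standard error, group levels are means ± SD of log2 RMA values, and adjusted p comes from limma with Benjamini-Hochberg adjustment over the 19937 genes, called at 0.05.

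In fat, progenitors lie around vessels and in the fibrous sheets between adipocytes, and carry the PDGF receptor Pdgfra with the sialomucin Cd34 and the anchored glycoprotein Thy1. Work in mice has divided them into interstitial cells marked by Dpp4, Pi16 and Cd55, committed preadipocytes, and regulatory cells marked by F3 that restrain adipogenesis in their neighbours. Dlk1, also called Pref-1, holds back adipocyte differentiation, while Fap and Dcn are made by fibroblasts that build and remodel matrix.

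Array medians lay between 7.92 and 8.1, and arrays of a group correlated at 0.976 to 0.995. By the mean of 1208 olfactory and vomeronasal receptor rows, taken as background, 5 arrays stood apart at 6.75 to 6.84 from 9 arrays at 6.29 to 6.56. Those 5 were EKO_HFD replicates 1 and 3, EKO_ND replicate 2, WT_HFD replicate 1 and WT_ND replicate 1, and the labels name no batch for them. Values in the 9 arrays are given where they change a call or stand beside one. Of the WT pads, those 9 keep only WT_HFD replicates 2 and 3 and WT_ND replicates 2 and 3. As the label epididymal fat implies, 0 of 8 adipocyte markers lay at or below background, while 3 of 7 epididymis markers lay at or below background. Every progenitor and stromal gene except Fap lay above at least 97.4% of the receptor rows in each array, and Fap lay above 67.5% of them in its lowest array, so Fap was measured nearest to background.

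Fap was the gene of the 10 that passed the test. It rose with HFD in WT pads, where 1 of 10 genes was called against 5.49% of all genes (3.19% higher and 2.3% lower). It was lower in EKO pads than in WT pads on HFD, where 1 of 10 was called against 5.69% of all genes (4.05% lower). Over all genes that comparison called 326 higher and 808 lower, against 794 higher and 1051 lower after quantile normalization. No gene of the 10 was called for diet in EKO pads, where 0% of all genes were called, or for genotype on ND, where 0.00502% were. With 10 genes, these counts lie near the shares of all genes. The 10 genes and the further lists below were chosen with earlier results of these data known. Their called shares are therefore descriptive and test no list. Because whole pads were measured, fewer cells of a type and less RNA per cell cannot be told apart.

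Fap, fibroblast activation protein, is a membrane-bound serine protease that cleaves after proline and is used as a marker of activated fibroblasts. Its log2 values were 7.25, 7.33, 7.53 and 7.35 in EKO_HFD pads and 7.41, 7.48, 7.57 and 7.90 in EKO_ND pads. They were 8.01, 8.46 and 8.41 in WT_HFD pads, against 7.67, 7.53 and 7.99 in WT_ND pads. The 3 WT_HFD pads were the highest of the 14, the lowest of them only just above the highest WT_ND pad. EKO_ND pads overlapped with both EKO_HFD and WT_ND pads, while the highest EKO_HFD pad lay just below the lowest WT_ND pad.

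With HFD, Fap rose in WT pads by 0.56 ± 0.15 (95% interval 0.24 to 0.89, adjusted p = 0.0454), a 1.48-fold higher level. EKO pads on HFD had less Fap than WT pads on HFD, by -0.93 ± 0.14 (-1.24 to -0.62, adjusted p = 0.00198), a 1.91-fold lower level. These 2 comparisons share the WT_HFD pads. In EKO pads the diet difference was -0.23 ± 0.13 (-0.51 to 0.06, adjusted p = 0.946), and the difference between the 2 diet effects was -0.79 ± 0.20 (-1.23 to -0.36, adjusted p = 0.109), which did not pass.

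The 2 calls differed in how firmly they held. The genotype difference of Fap on HFD passed under all 24 alternatives that kept its row, at -1.10 to -0.85, and was -1.10 ± 0.17 (adjusted p = 0.00622) in the 9 lower-background arrays. The diet call in WT passed under 12 of 24 alternatives, with values of 0.47 to 0.71 over all 24, and was 0.68 ± 0.17 (adjusted p = 0.0366) in the 9 arrays. It was lost without WT_HFD replicate 2 (adjusted p = 0.178), WT_HFD replicate 3 (0.194), WT_ND replicate 1 (0.107) or WT_ND replicate 2 (0.199), with only the compared groups in the fit (0.131), and, at adjusted p of 0.05002 to 0.0636, without any single EKO pad other than EKO_ND replicate 4.

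**Figure D1:**
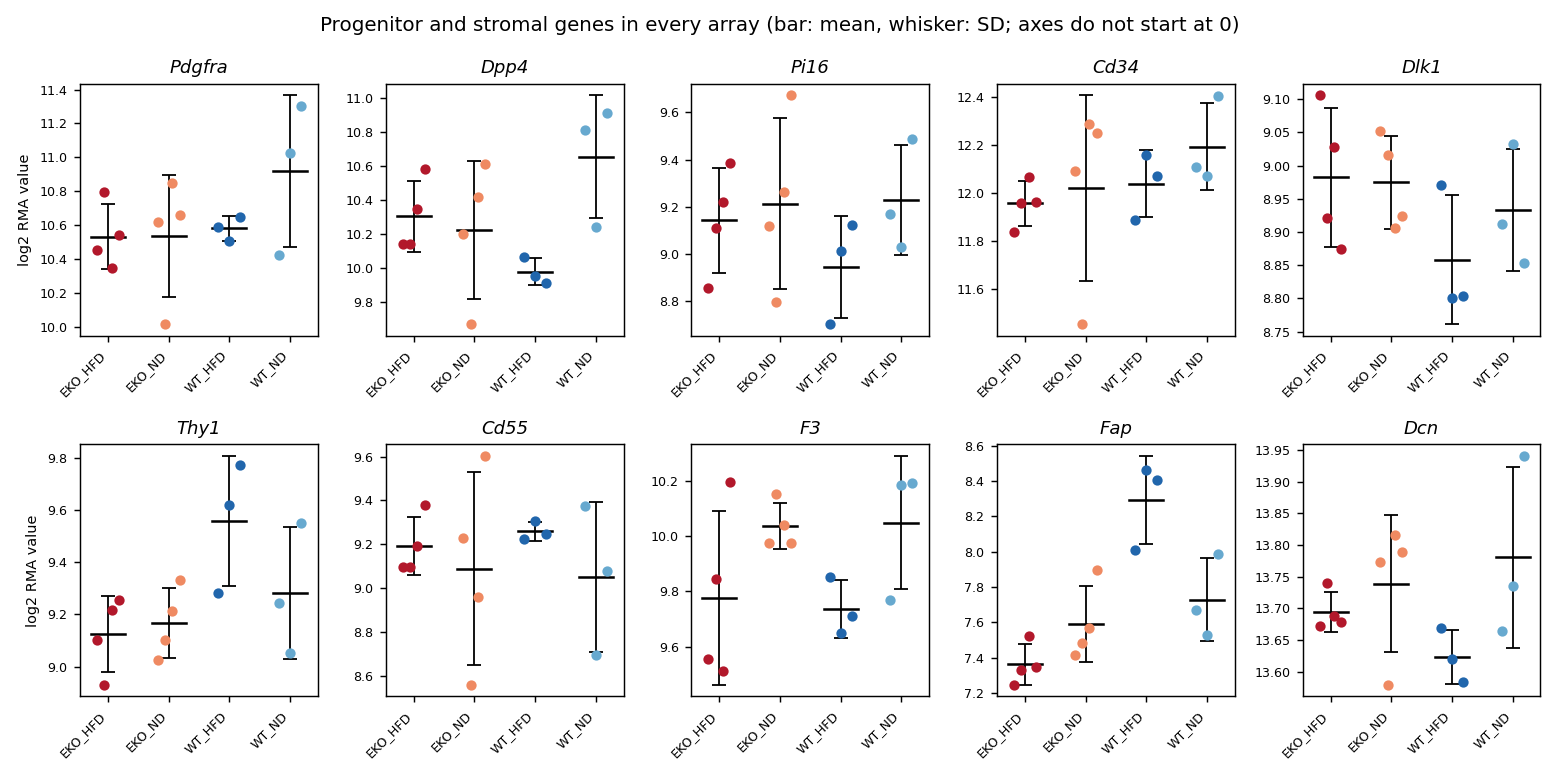
Log2 RMA value (vertical axes, which do not start at 0) of each of the 10 genes in the EKO_HFD, EKO_ND, WT_HFD and WT_ND pads, with points for single arrays, bars for group means and whiskers for SD. Fap is the gene whose 3 WT_HFD points lie above all other points, and Dlk1 spans 0.305 and Dcn 0.362 over the 14 arrays.

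Dpp4, dipeptidyl peptidase 4, is a surface serine protease of the same family as Fap and the defining marker of interstitial progenitors. Its log2 values were 10.14, 10.14, 10.35 and 10.59 in EKO_HFD pads and 10.20, 9.67, 10.42 and 10.61 in EKO_ND pads. They were 10.07, 9.96 and 9.91 in WT_HFD pads, against 10.81, 10.24 and 10.91 in WT_ND pads. All 3 WT_HFD values lay below every WT_ND and every EKO_HFD value, while EKO_ND pads spanned both.

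The Dpp4 difference for HFD in WT pads was -0.68 ± 0.22 (-1.14 to -0.22, unadjusted p = 0.00676, adjusted p = 0.0875), a 1.6-fold lower mean that missed the threshold. On HFD, EKO pads differed from WT pads by 0.33 ± 0.20 (-0.10 to 0.76, adjusted p = 0.409), and on ND by -0.43 ± 0.20 (-0.86 to -0.0004, unadjusted p = 0.0498, adjusted p = 1). The diet difference in EKO pads was 0.08 ± 0.19, and that between the diet effects was 0.76 ± 0.28 (adjusted p = 0.31). Without EKO_ND replicate 2 the WT diet difference passed (adjusted p = 0.0327), as it did without WT_ND replicate 2 (-0.89 ± 0.21, adjusted p = 0.0446).

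Fap and Dpp4 are relatives that lie close together on mouse chromosome 2, with Gcg between them. Their mean levels ran in opposite orders of the 2 WT groups, Fap with WT_HFD highest and Dpp4 with WT_HFD lowest. Next to them, Ifih1 differed by -0.04 (adjusted p = 0.971) and Gca by 0.01 (adjusted p = 0.994) for diet in WT pads, and Gcg by -0.03 (adjusted p = 0.98). Of the 7 other prolyl peptidases listed, 0 passed in either direction in any comparison, and Dpp7 came nearest for diet in WT pads at 0.40 ± 0.17 (adjusted p = 0.215).

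**Figure D2:**
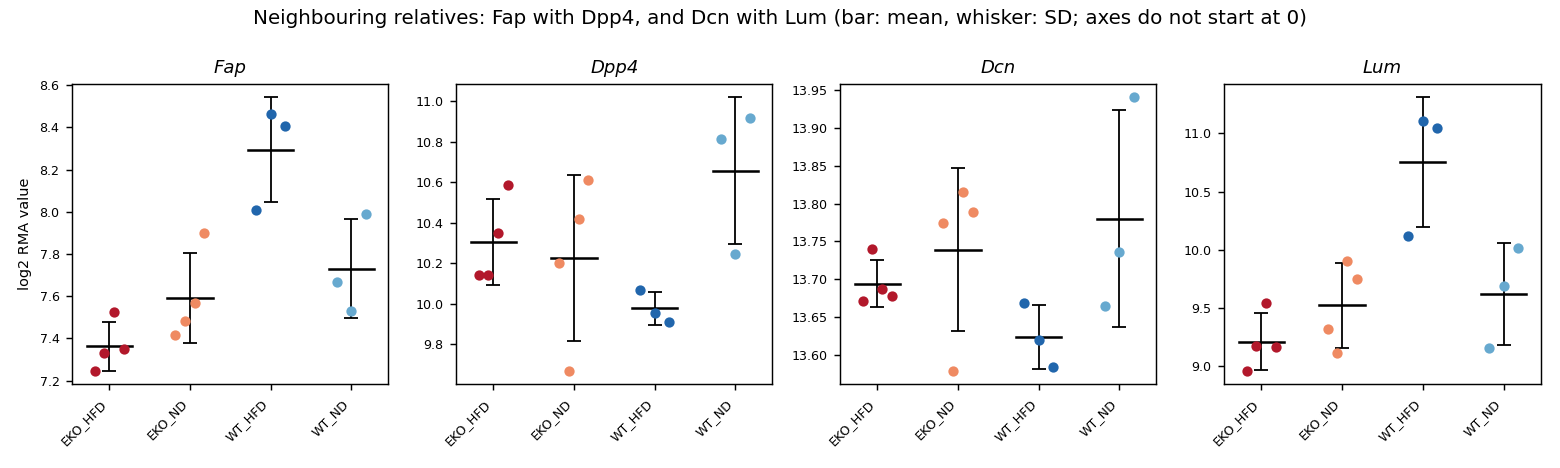
Log2 RMA values (axes do not start at 0) of Fap and Dpp4, neighbours on chromosome 2, and of Dcn and Lum, neighbours on chromosome 10, by group, with points for arrays, bars for means and whiskers for SD. In WT_HFD pads Fap and Lum lie at their highest means (8.29 and 10.75) and Dpp4 and Dcn at their lowest (9.98 and 13.62).

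Pi16, a peptidase inhibitor that marks universal fibroblasts and interstitial progenitors, had means of 9.14 ± 0.22 in EKO_HFD, 9.21 ± 0.36 in EKO_ND, 8.94 ± 0.22 in WT_HFD and 9.23 ± 0.23 in WT_ND pads. Neighbouring groups in the order of its means overlapped. Its diet difference was -0.07 ± 0.17 in EKO pads and -0.28 ± 0.20 (-0.71 to 0.14, adjusted p = 0.575) in WT pads.

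Cd55, which speeds the decay of complement convertases on the cell surface, had means of 9.19 ± 0.13 in EKO_HFD, 9.09 ± 0.44 in EKO_ND, 9.26 ± 0.04 in WT_HFD and 9.05 ± 0.34 in WT_ND pads. Unlike Dpp4 and Pi16 it had no negative diet difference, with 0.10 ± 0.18 in EKO pads and 0.21 ± 0.21 (-0.24 to 0.66, adjusted p = 0.784) in WT pads, neither of which passed. Its near copy Cd55b, the adjacent gene on chromosome 1, had group means of 6.22 to 6.32, about the level of the receptor rows. Among 7 other complement regulators, Cd46 fell with HFD in WT pads (-0.72 ± 0.18, adjusted p = 0.0339) and 0 rose. This was 14.3% called, against 5.49% of all genes.

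The 3 interstitial markers varied together from pad to pad within groups, as did some other pairs of the 10 genes. After subtraction of group means, Dpp4 and Cd55 correlated at r = 0.844 over 14 arrays (rho 0.71), Dpp4 and Pi16 at 0.79 (rho 0.732), and Pi16 and Cd55 at 0.72 (rho 0.631). In the 9 lower-background arrays these were 0.728, 0.907 and 0.838. Over the 14 arrays, 0.31%, 0.81% and 9.75% of all genes correlated at least as highly with the first gene of each pair. The third pair was thus less unusual there. In the 9 arrays these shares were 7.27%, 0.93% and 5.15%, so the first pair was then the least unusual.

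Low values in EKO_ND replicate 2 and high values in EKO_ND replicate 4 were shared by the 3 genes. Leaving out the 2 arrays farthest from the median lowered r to 0.637, 0.688 and 0.361 in the order of the pairs above. F3 had r of -0.005 with Dpp4, 0.104 with Pi16 and -0.241 with Cd55 over the 14 arrays, and 0.482, 0.335 and 0.203 with them in the 9 arrays. Cd34 had r of 0.797 with Pi16, 0.762 with Dpp4 and 0.616 with Cd55 over the 14 arrays. In the same order Thy1 had 0.754, 0.531 and 0.398, and Fap 0.819, 0.504 and 0.464. In the 9 arrays Thy1 had 0.915, 0.963 and 0.665, and Fap 0.916, 0.841 and 0.766. High values were thus not limited to the 3 interstitial markers. These values describe arrays that also share a background level, whose r with the deviations was -0.283 for Dpp4, -0.602 for Pi16, -0.166 for Cd55 and -0.327 for F3.

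The bases upstream of the 3 interstitial markers are shown with those of F3, whose r with them was lower over the 14 arrays. Each run holds 250 bases that end at the base before the gene start, read 5′ to 3′ on the gene's strand from RefSeq (GRCm38.p6), at chr2:62412232-62412481 on the minus strand for Dpp4, chr17:29318632-29318881 on the plus strand for Pi16, chr1:130462745-130462994 on the minus strand for Cd55 and chr3:121723287-121723536 on the plus strand for F3. Capitals mark matches on either strand of 4 motifs, none of which overlap. These were the GC box with the letters GGGCGG, the box named by its letters CCAAT, the TATA box with the letters TATAAA, and the AP-1 site with the letters TGANTCA.
Dpp4: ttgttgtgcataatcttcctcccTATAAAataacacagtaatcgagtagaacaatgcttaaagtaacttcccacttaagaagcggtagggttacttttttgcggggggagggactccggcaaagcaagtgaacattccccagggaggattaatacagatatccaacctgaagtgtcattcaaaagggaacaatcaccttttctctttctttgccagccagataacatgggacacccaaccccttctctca
Pi16: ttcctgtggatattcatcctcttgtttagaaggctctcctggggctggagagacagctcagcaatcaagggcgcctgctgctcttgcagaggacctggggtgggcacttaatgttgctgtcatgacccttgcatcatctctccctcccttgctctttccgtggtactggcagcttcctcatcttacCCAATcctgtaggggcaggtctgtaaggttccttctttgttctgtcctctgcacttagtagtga
Cd55: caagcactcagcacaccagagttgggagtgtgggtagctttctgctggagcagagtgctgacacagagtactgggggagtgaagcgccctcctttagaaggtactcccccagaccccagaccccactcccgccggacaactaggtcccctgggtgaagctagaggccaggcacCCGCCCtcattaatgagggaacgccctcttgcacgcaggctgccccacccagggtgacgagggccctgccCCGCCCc
F3: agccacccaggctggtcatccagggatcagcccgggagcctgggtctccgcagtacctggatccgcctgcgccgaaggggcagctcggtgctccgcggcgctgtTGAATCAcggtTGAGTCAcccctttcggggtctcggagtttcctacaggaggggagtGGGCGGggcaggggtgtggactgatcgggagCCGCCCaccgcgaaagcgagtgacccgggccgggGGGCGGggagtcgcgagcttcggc

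The stretch of Dpp4 had 1 TATA match, 227 bases before the start, and 43.6% G and C, while that of Pi16 had 1 CCAAT match, 64 bases before the start, and 52.4% G and C. Cd55 had 2 GC box matches and 64% G and C, and F3 had 3 GC box and 2 AP-1 matches and 70% G and C. No motif of the 4 was shared by Dpp4, Pi16 and Cd55. Of 32851 upstream stretches of the same length, 32.7% held a GC box match, 33.8% a CCAAT match, 12.4% a TATA match and 6.75% an AP-1 match, and the median G and C content was 52.4%. Stretches were matched for 7 of the 10 genes, and the 3 not printed, of Pdgfra, Cd34 and Dlk1, held no match.

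Of 15 measured other genes of Dpp4+ interstitial progenitors, 0 rose and 2 fell with HFD in WT pads, or 13.3% called against 5.49% of all genes, with a median difference of -0.13 against -0.020 over all genes. Igfbp6, which binds insulin-like growth factors, fell by 0.69 ± 0.17 (adjusted p = 0.0255), and Smpd3, a sphingomyelinase, fell by 0.66 ± 0.18 (adjusted p = 0.0443). On HFD, Bmp7, a bone morphogenetic protein, was higher in EKO than in WT pads by 0.35 ± 0.09 (adjusted p = 0.0346) and 0 of the 15 were lower. This was 6.67% called, near the 5.69% of all genes.

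Pdgfra, the receptor for platelet-derived growth factors that marks progenitors and fibroblasts broadly, had log2 values of 10.45, 10.79, 10.35 and 10.54 in EKO_HFD pads and 10.62, 10.02, 10.85 and 10.66 in EKO_ND pads. In WT_HFD pads they were 10.59, 10.51 and 10.65, against 10.43, 11.02 and 11.30 in WT_ND pads. WT_ND held both the highest pads of the 14 and 1 pad within the range of the other groups, so all groups overlapped.

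The Pdgfra diet difference was -0.004 ± 0.19 in EKO pads and -0.34 ± 0.22 (-0.80 to 0.12, adjusted p = 0.519) in WT pads. Its deviations from group means went with array background at r = -0.735, the strongest such value of the 10 genes, and in the 9 lower-background arrays the WT difference was -0.59 ± 0.13 (adjusted p = 0.0236). The fit to those 9 arrays called 2152 of 19937 genes for diet in WT, against 1094 with all 14. With the background split as a block over all 14 arrays the Pdgfra difference in WT was -0.34 ± 0.15 (adjusted p = 0.186) and not called. Of 6 PDGF ligands and receptors listed beside it, 0 passed in either direction in any comparison, and Pdgfrb, the other receptor, differed by 0.17 (adjusted p = 0.676) for diet in WT and by -0.41 (adjusted p = 0.0935) for genotype on HFD.

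Cd34, also found on endothelium, and Thy1, also found on T cells in mice, are surface glycoproteins of progenitors. Cd34 had means of 11.96 ± 0.09 in EKO_HFD, 12.02 ± 0.39 in EKO_ND, 12.04 ± 0.14 in WT_HFD and 12.19 ± 0.18 in WT_ND pads, and its differences lay between -0.17 and -0.06 in the 4 pairwise comparisons with none called. Its lowest pad was EKO_ND replicate 2 at 11.45, which was also the lowest for Pdgfra, Dpp4 and Cd55.

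Thy1 had log2 values of 9.10, 8.93, 9.22 and 9.25 in EKO_HFD pads and 9.02, 9.10, 9.21 and 9.33 in EKO_ND pads. In WT_HFD pads they were 9.28, 9.62 and 9.77, against 9.24, 9.05 and 9.55 in WT_ND pads. On HFD all EKO values lay below all WT values, by a narrow gap at WT_HFD replicate 1.

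That genotype difference of Thy1 was -0.43 ± 0.14 (-0.72 to -0.14, unadjusted p = 0.00697, adjusted p = 0.086) and missed the threshold. Without WT_HFD replicate 1 it was -0.57 ± 0.14 (adjusted p = 0.0183). Its diet difference was -0.04 ± 0.13 in EKO pads and 0.27 ± 0.15 (adjusted p = 0.388) in WT pads. The endothelial markers had 0 of 8 called in any comparison, and of 7 T cell markers Cd3e rose with HFD in WT pads (0.40 ± 0.11, adjusted p = 0.0418). This was 14.3% of the 7, against 5.49% of all genes. The T cell list averaged 7.429 to 7.569 in EKO_HFD, 7.392 to 7.571 in EKO_ND, 7.489 to 7.716 in WT_HFD and 7.38 to 7.404 in WT_ND pads, with 1 of 7 markers at or below background, and its part in the Thy1 values was not tested.

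Dlk1, a Notch-related surface protein of preadipocytes, was the steadiest of the 10 beside Dcn. Its means were 8.98 ± 0.10 in EKO_HFD, 8.97 ± 0.07 in EKO_ND, 8.86 ± 0.10 in WT_HFD and 8.93 ± 0.09 in WT_ND pads, a span of 0.305 over the 14 arrays. Of all genes, 10.6% had a smaller SD within groups. Its deviations from group means went with array background at r = 0.663, against negative values for the other 9 genes. How much of its signal was specific to Dlk1 was not tested. No difference passed, and the widest, EKO against WT on HFD, was 0.12 ± 0.08 (-0.06 to 0.31, adjusted p = 0.464). Its imprinted neighbour on chromosome 12, Meg3, differed by -0.14 ± 0.15 (adjusted p = 0.806) for diet in WT pads, and 0 of 13 Dlk and Notch genes passed in any comparison.

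F3, tissue factor, starts the clotting cascade with factor VII and marks the regulatory stromal cells. It had log2 values of 9.56, 9.84, 9.51 and 10.19 in EKO_HFD pads and 9.98, 10.15, 10.04 and 9.98 in EKO_ND pads. In WT_HFD pads they were 9.85, 9.65 and 9.71, against 9.77, 10.18 and 10.19 in WT_ND pads. Means were lower on HFD in both genotypes, the pads of the diets overlapped in each, and in the 9 lower-background arrays the EKO difference was near 0.

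Diet differences of F3 were -0.26 ± 0.14 (-0.56 to 0.04, unadjusted p = 0.0806, adjusted p = 0.946) in EKO and -0.31 ± 0.16 (-0.65 to 0.03, adjusted p = 0.36) in WT pads, neither called. The fit to the 9 lower-background arrays called 2152 of 19937 genes for diet in WT. In it the diet differences of F3 were 0.02 ± 0.10 in EKO and -0.51 ± 0.11 (adjusted p = 0.0227) in WT pads. With the background split as a block they were -0.22 ± 0.13 in EKO and -0.31 ± 0.14 (adjusted p = 0.213) in WT pads, neither called. With HFD in WT pads, 18.2% of 11 other genes of F3+ regulatory cells were called, against 5.49% of all genes. Of the 11, 0 rose and 2 fell. Those were Rspo1, a Wnt-enhancing secreted protein (-0.82 ± 0.19, adjusted p = 0.0184), and Fmo2, a flavin monooxygenase (-0.63 ± 0.16, adjusted p = 0.037). Aldh1a2, an enzyme of retinoic acid synthesis, was lower in EKO than in WT pads on HFD (-0.60 ± 0.14, adjusted p = 0.0219). It was the 1 of the 11 called there, or 9.09% against 5.69% of all genes.

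Around tissue factor, 3 of 10 genes rose and 2 fell with HFD in WT pads, or 50% called against 5.49% of all genes. This list, like the others, was chosen with earlier results of these data known, so its share is no test. F3 itself was not called. Tfpi2, a protease inhibitor, rose by 1.24 ± 0.14 (adjusted p = 0.00023), and F2r, the thrombin receptor PAR1, by 0.91 ± 0.21 (adjusted p = 0.0196). Thbd, thrombomodulin, fell by 1.57 ± 0.29 (adjusted p = 0.00569), and Tfpi, the inhibitor of tissue factor, fell by 0.37 ± 0.10 (adjusted p = 0.044). F7, encoding factor VII, also rose (0.55 ± 0.11, adjusted p = 0.0109) and was named after its values were seen. On HFD the same 3 genes were lower in EKO than in WT pads, Tfpi2 by -1.18 ± 0.13 (adjusted p = 0.000179), F2r by -1.08 ± 0.19 (adjusted p = 0.00523) and F7 by -0.52 ± 0.11 (adjusted p = 0.0104), in a comparison that shares the WT_HFD pads. They were 30% of the 10, against 5.69% of all genes called. For diet in EKO pads 0 of the 10 were called. There Tfpi differed by -0.41 ± 0.09 without overlap of the groups (adjusted p = 0.436), and Thbd by -0.63 ± 0.25 (adjusted p = 0.946).

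**Figure D3:**
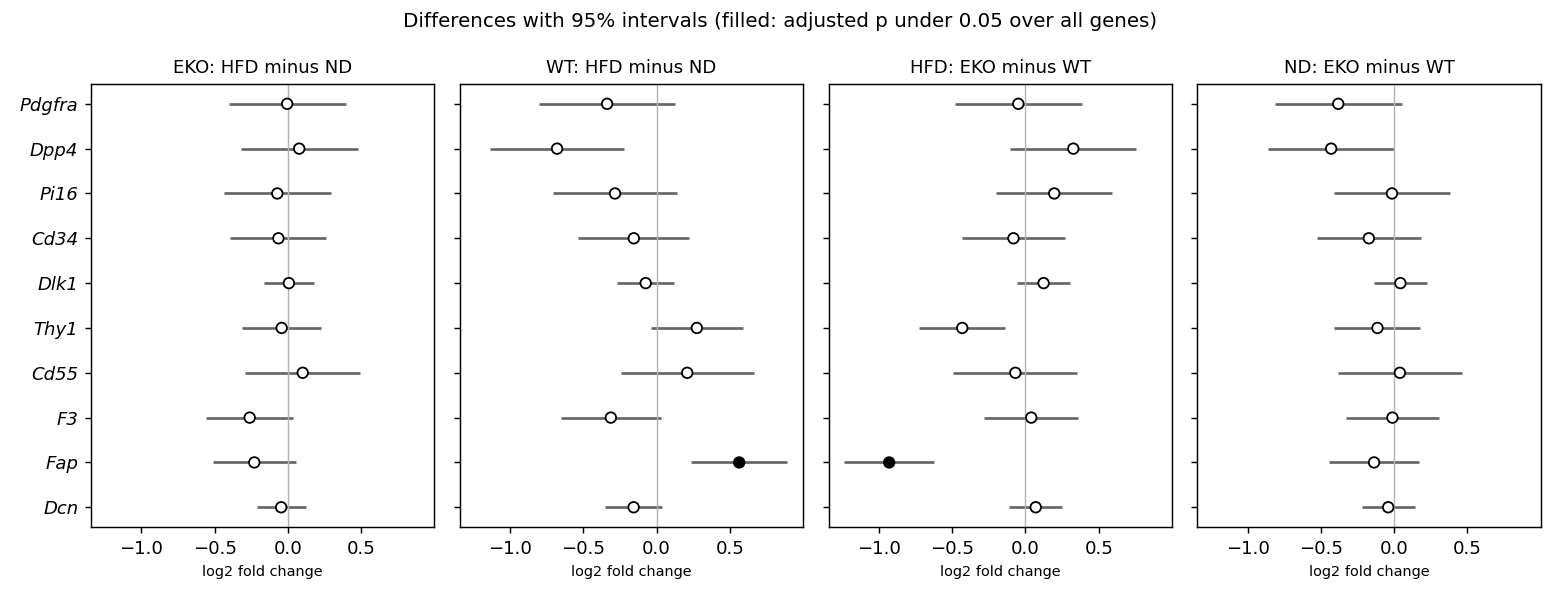
Log2 fold change (horizontal axes) of each of the 10 genes with its 95% interval for HFD minus ND in EKO and in WT pads and for EKO minus WT on HFD and on ND, with filled points for adjusted p under 0.05. Fap is filled in WT for diet (0.56) and on HFD for genotype (-0.93), and no point is filled in the other 2 panels.

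Dcn, decorin, is a small leucine-rich proteoglycan that binds collagen fibrils. Its log2 values were 13.67, 13.74, 13.69 and 13.68 in EKO_HFD pads and 13.77, 13.58, 13.82 and 13.79 in EKO_ND pads. In WT_HFD pads they were 13.67, 13.62 and 13.58, against 13.66, 13.74 and 13.94 in WT_ND pads. The EKO_HFD values all lay above the WT_HFD values, by 0.07 ± 0.08 in the mean (adjusted p = 0.697), and the diet difference was -0.04 ± 0.08 in EKO pads and -0.16 ± 0.09 (-0.35 to 0.04, adjusted p = 0.449) in WT pads.

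Lum, lumican, is a proteoglycan of the same family and the next gene on chromosome 10, and its values differed much more. They were 8.96, 9.18, 9.55 and 9.16 in EKO_HFD pads, 9.32, 9.12, 9.90 and 9.75 in EKO_ND pads, 10.11, 11.11 and 11.04 in WT_HFD pads and 9.16, 9.68 and 10.02 in WT_ND pads. Lum rose with HFD in WT pads by 1.13 ± 0.28 (adjusted p = 0.0281) and was lower in EKO than in WT pads on HFD by -1.54 ± 0.26 (adjusted p = 0.00332), the directions of Fap.

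Of the 11 small leucine-rich proteoglycans listed beside Dcn, Lum rose and 2 fell with HFD in WT pads. The called share was 27.3%, against 5.49% of all genes. Podn, podocan, fell by 1.14 ± 0.15 (adjusted p = 0.000712) and Fmod, fibromodulin, by 0.89 ± 0.18 (adjusted p = 0.0106). For diet in EKO pads 0 of the 11 were called. There 10 differences were negative and 1 positive, with a median of -0.24 against 0.0067 over all genes. Podn (-0.54 ± 0.13, adjusted p = 0.542) and Ogn of the same list (-0.57 ± 0.13, adjusted p = 0.524) were lower without overlap of the EKO groups, as were 1.59% of all genes. On HFD, Podn was higher in EKO than in WT pads (0.89 ± 0.14, adjusted p = 0.00254) and Lum lower, or 18.2% called against 5.69% of all genes. Of the 11, 2 lay at or below background.

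Without overlap between groups, 1 of the 10 genes was higher (Fap) and 1 lower (Dpp4) with HFD in WT pads, against 8.77% and 11.3% of all genes and 20% in either direction. On HFD, 2 were higher in EKO than in WT pads (Dpp4, Dcn) and 2 lower (Fap, Thy1), against 7.93% and 8.71% of all genes and 16.6% in either direction. For diet in EKO pads there were 0 such genes in either direction, against 0.973% of all genes higher, 1.59% lower and 2.56% in all. For genotype on ND there were also 0, against 0.848% higher, 0.868% lower and 1.72% in all.

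For diet in EKO pads the 10 differences ran from -0.26 (F3) to 0.10 (Cd55), with a median of -0.043 against 0.0067 over all genes. By limma 0 passed, and 0 of 10 had an unadjusted p under 0.05, against 883 genes or 4.43% of all. For genotype on ND they ran from -0.43 (Dpp4) to 0.04 (Dlk1), with a median of -0.078 against -0.0064, and 1 of 10 had an unadjusted p under 0.05, against 226 genes or 1.13% of all. Median differences for diet in WT were -0.16 against -0.020 over all genes, and for genotype on HFD -0.0043 against 0.033. An unadjusted p under 0.05 was found for 2 of 10 with diet in WT, against 16.9% of all genes, and for 2 of 10 with genotype on HFD, against 19.3%. The difference between the diet effects passed in 0 of 10 by limma, against 0.482% of all genes, with 2 of 10 (Fap, Dpp4) at an unadjusted p under 0.05, against 10.8%.

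Among 57 measured genes of the 4 progenitor and stromal lists other than the 10, diet in WT pads called 4 higher and 5 lower, or 15.8%, and genotype on HFD 3 higher and 5 lower, or 14%. The shares of all genes called were 5.49% and 5.69%, dim genes included. With the dimmest 50% of genes left out, 889 of 9969 genes were called for diet in WT and 1010 of 9969 for genotype on HFD. In these 4 lists 0 genes had a group mean at or below background. The all-gene shares set beside the other lists also include dim genes, and the part of expression level in the gaps was not tested. Diet in EKO pads and genotype on ND called 0 of 57. The calls ran in both directions, and the median difference was -0.024 for diet in WT and -0.030 for genotype on HFD.

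Of 14 committed preadipocyte genes, Apod, a lipid carrier (0.86 ± 0.21, adjusted p = 0.029), and Vcam1, an adhesion molecule (0.59 ± 0.15, adjusted p = 0.0376), rose with HFD in WT pads. Ebf2, a transcription factor of adipogenic precursors, fell (-0.84 ± 0.15, adjusted p = 0.0039). The called share of the 14 was 21.4%, against 5.49% of all genes. On HFD, Ebf2 was higher in EKO than in WT pads (0.73 ± 0.14, adjusted p = 0.00627), while Vcam1 (-0.54 ± 0.14, adjusted p = 0.0396) and Zfp423, a preadipocyte transcription factor (-0.34 ± 0.09, adjusted p = 0.0351), were lower. This was 21.4% called, against 5.69% of all genes. On ND, 0 of the 14 passed, and Apod was higher in EKO than in WT pads by 1.39 ± 0.20 without overlap of the groups (unadjusted p = 5.7e-06, adjusted p = 0.0568).

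Prrx1, a homeobox factor of mesenchyme, had the largest called differences among the 17 genes shared by fibroblasts and progenitors. Its log2 values were 9.75, 10.01, 9.76 and 10.02 in EKO_HFD pads, 9.79, 9.32, 9.88 and 9.99 in EKO_ND pads, 10.84, 11.32 and 11.64 in WT_HFD pads and 9.62, 9.84 and 9.99 in WT_ND pads. The 3 WT_HFD pads stood above all others, with a diet difference of 1.45 ± 0.20 (adjusted p = 0.000811) in WT pads and a genotype difference of -1.38 ± 0.18 (adjusted p = 0.000742) on HFD. S100a4, a calcium-binding protein also made by macrophages, rose in WT pads (1.01 ± 0.18, adjusted p = 0.00435) and was lower in EKO pads on HFD (-0.93 ± 0.17, adjusted p = 0.00507), where Twist2, a mesenchymal factor, was higher (0.41 ± 0.11, adjusted p = 0.0401).

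**Figure D4:**
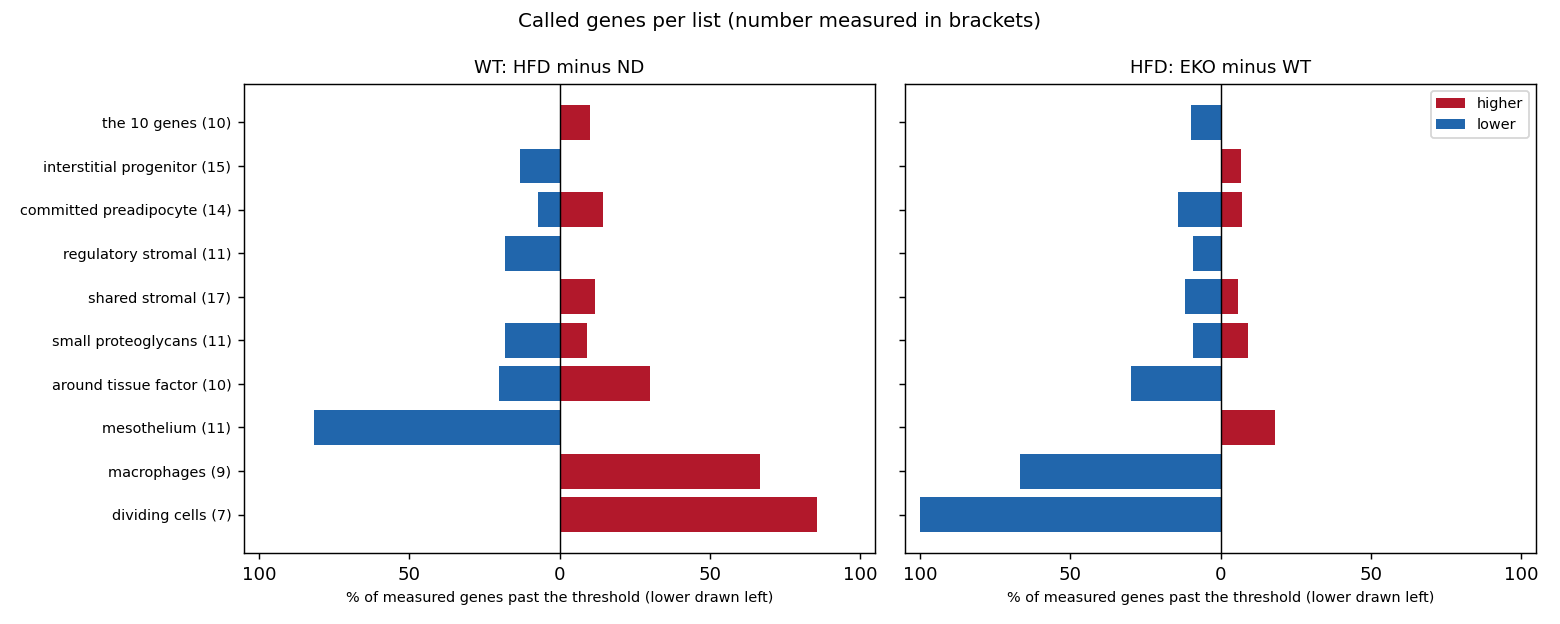
Share of the measured genes of each list past adjusted p under 0.05 (horizontal axes, percent), with higher drawn to the right and lower to the left, for HFD minus ND in WT pads and EKO minus WT on HFD. The 4 progenitor and stromal lists carry short bars, on both sides in both panels for committed preadipocytes alone. The macrophage and dividing-cell lists carry long bars on 1 side in both panels. Mesothelium has a long bar with diet in WT (81.8% lower) and a short one for genotype on HFD (18.2% higher).

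Markers of other cell types moved with the same groups. With HFD in WT pads 6 of 9 macrophage markers rose (median 1.35) and 6 of 7 markers of dividing cells rose, and on HFD 6 of 9 and 7 of 7 were lower in EKO than in WT pads. Of all genes, 3.19% were called higher in the first comparison and 4.05% lower in the second. With HFD in WT pads Itgax, an integrin of inflammatory macrophages, rose by 2.15 ± 0.17 (adjusted p = 1.09e-05) and Mki67, a proliferation antigen, by 1.32 ± 0.12 (adjusted p = 6.03e-05). The macrophage list averaged 9.591 to 10.069 in EKO_HFD, 9.225 to 10.111 in EKO_ND, 10.557 to 11.048 in WT_HFD and 9.465 to 9.733 in WT_ND pads, with 0 of 9 markers at or below background.

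The dividing-cell list averaged 7.099 to 7.373 in EKO_HFD, 7.154 to 7.231 in EKO_ND, 7.708 to 8.527 in WT_HFD and 7.116 to 7.225 in WT_ND pads. Of its 7 markers, 2 lay at or below background in EKO_HFD, 1 in EKO_ND, 0 in WT_HFD and 1 in WT_ND pads. Both lists were thus highest in the WT_HFD pads, where Fap, Lum and Prrx1 were highest, and their part in those results was not tested.

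Mesothelial markers, from the sheet of cells that covers the pad, went the other way, as 9 of 11 fell with HFD in WT pads (median -1.02), among them Upk3b (-1.17 ± 0.19, adjusted p = 0.00213). In that comparison 2.3% of all genes were called lower. The list averaged 9.494 to 9.792 in EKO_HFD, 9.257 to 9.815 in EKO_ND, 8.994 to 9.141 in WT_HFD and 9.81 to 10.338 in WT_ND pads, with 0 of 11 at or below background. Dpp4 and Igfbp6 were lowest where this list was lowest, and its part in them was not tested. On HFD 2 of 11 were higher in EKO pads, Upk3b (0.75 ± 0.17, adjusted p = 0.0218) and Krt18 (0.34 ± 0.07, adjusted p = 0.0157), against 1.64% of all genes.

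Of 8 adipocyte markers, Adipoq (-0.45 ± 0.09, adjusted p = 0.0101) and Slc2a4 (-0.60 ± 0.13, adjusted p = 0.0163) fell with HFD in WT pads and were higher in EKO than in WT pads on HFD, where Lep was lower. Called shares were 25% for diet in WT and 37.5% for genotype on HFD, against 5.49% and 5.69% of all genes. Of 8 smooth muscle and pericyte markers Myh11 fell in WT pads (-0.78 ± 0.19, adjusted p = 0.0233), or 12.5% called against 5.49% of all genes. Of 7 epididymis markers, 0 were called in any comparison.

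Over all 14 arrays, group differences included, Fap was most like Nedd8 (Pearson r = 0.966), Lox (0.962) and Ctsk (0.959) among 14764 genes ranked. Lox, which cross-links collagen, rose with HFD in WT pads by 1.03 (adjusted p = 0.028) and was lower in EKO than in WT pads on HFD by -1.77 (adjusted p = 0.000727). Ctsk, a collagen-cleaving cathepsin, rose by 1.22 (adjusted p = 0.00196) and was lower by -1.60 (adjusted p = 0.000195) in the same comparisons. Dpp4 was most like Lama3 (0.961), the mesothelial marker Msln (0.941) and Fndc1 (0.931).

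For Pdgfra the highest values were Ace (0.923), Ror1 (0.911) and Timp2 (0.907), for Pi16 Sulf1 (0.912), Mturn (0.908) and Ccdc66 (0.907), and for Cd55 Ric3 (0.884), Trim16 (0.879) and Htra3 (0.871). Cd34 was followed by Clock (0.915), Arhgap20 (0.906) and Sytl2 (0.902), and Thy1 by Ldlrad4 (0.939), Atpif1 (0.932) and Il27ra (0.91). Those nearest Dlk1 were Asgr2 (0.903), Atp2a1 (0.893) and Treh (0.89), nearest F3 Zfp839 (0.864), C2cd3 (0.849) and Tmem222 (0.824), and nearest Dcn Zfp606 (0.941), Runx1t1 (0.925) and Zfp300 (0.923). Each gene thus had different nearest genes, and F3 the weakest likeness of the 10.

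Within groups, other pairs of the 10 also varied together. Pdgfra and Dcn correlated at r = 0.885 (rho 0.776), a value reached by 0.06% of all genes against Pdgfra. In the 9 lower-background arrays their r was 0.748, reached by 2.4% of all genes. Thy1 and Fap correlated at 0.857 (rho 0.881, 0.11% of genes) and at 0.796 in the 9 arrays (3.78% of genes). Pi16 and Fap correlated at 0.819 over the 14 arrays. Dlk1 had negative values with each of the other genes, from -0.75 with Pi16 to -0.277 with Dcn, and its deviations went with array background at r = 0.663, against negative values for the other 9.

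**Figure D5:**
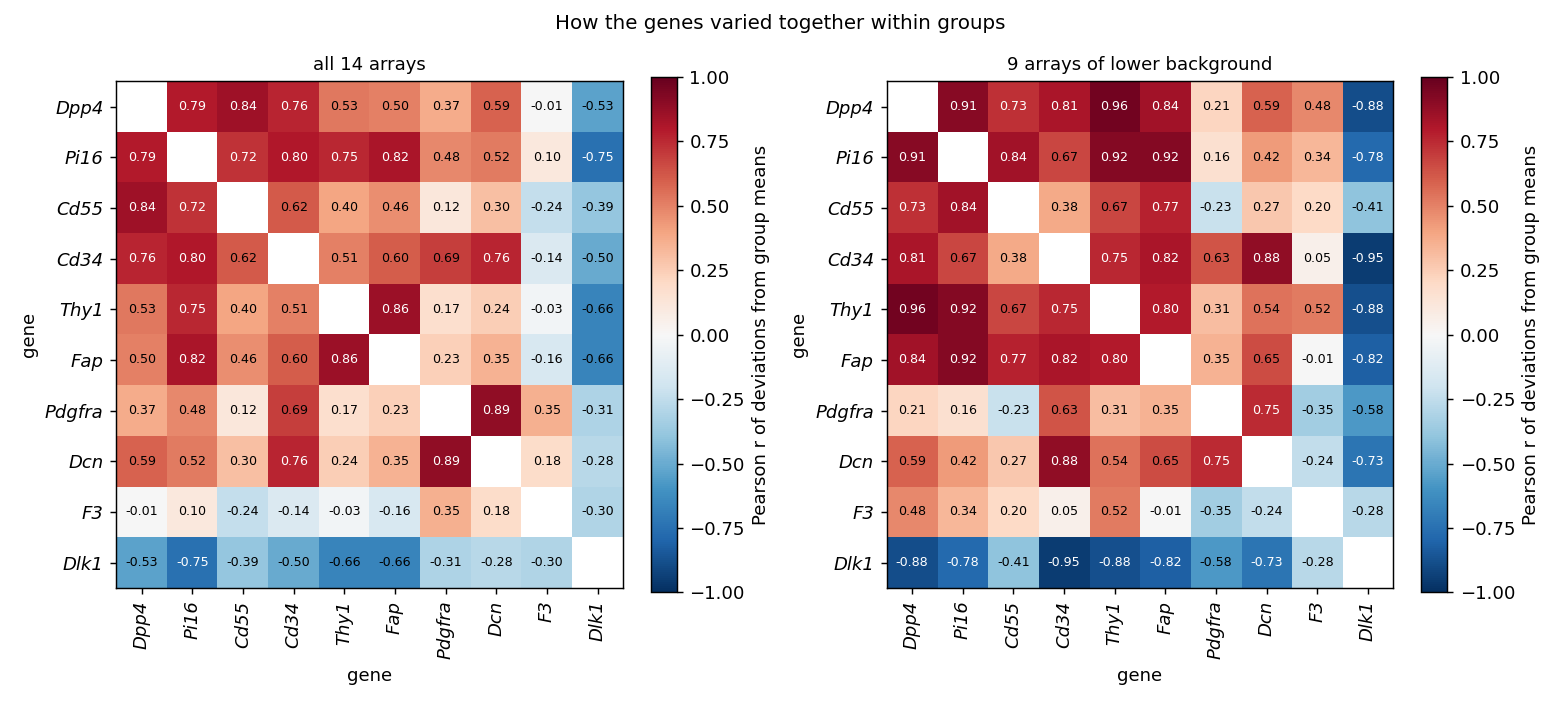
Pearson r between the deviations of the 10 genes from their group means, in all 14 arrays (left) and in the 9 arrays of lower background (right), with colour from -1 to 1. Dpp4, Pi16 and Cd55 have values of 0.72 to 0.84 with each other on the left. Cd34 has 0.62 to 0.80 with them there, and Thy1 0.40 to 0.75. F3 has -0.24 to 0.10 with those 3 on the left and 0.20 to 0.48 on the right, and Dlk1 is negative with every other gene in both panels.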

How the data were processed

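RNA of whole epididymal fat pads was measured on 14 Affymetrix arrays. The deposited table holds log2 values for each probe set, and the submitters' processing notes name RMA as the method. Its version and settings were not given in the sources used here. RMA as usually run scales arrays to a common distribution, which can hide shifts common to most of the transcriptome, though array medians here still ran from 7.92 to 8.1. Values ran from 4.21 to 14.5 and were used as deposited.

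Of 34760 rows, 21640 carry 1 gene symbol in the platform annotation, 1321 several and 11799 none. The probe set with the highest mean was kept for the 954 genes with several, leaving 19937 genes. Groups and replicate numbers came from the labels. With R 4.3.3, limma 3.58.1 (lmFit, eBayes) estimated 1 mean per group from the 14 arrays, leaving 10 residual degrees of freedom, with Benjamini-Hochberg adjusted p under 0.05, two-sided. Figures used matplotlib 3.10.9.

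The 10 genes and 18 further lists (172 of 182 genes measured) were chosen with earlier results of these data known. From each list up to 4 called genes are named, those with the highest and lowest log2 fold changes, or up to 2 with the smallest p where none passed, and the 3 genes with the highest r are named per gene. Alternatives were the replicate number or the background split as a block, the lower-background arrays, median centring, quantile normalization, a trended robust prior, array weights, filters on dim genes, the mean of probe sets, the compared groups alone and leaving out each array. The number of arrays limits the precision.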

Additional observations from a re-analysis of the deposited data

Results flagged for a closer look

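The difference between the diet effects of EKO and WT pads was tested directly. It passed for 0 of the 10 genes and for 0.482% of all genes. Among the 172 measured genes of the further lists it passed for 4, which are named because they passed. It was -1.31 for Prrx1 (SE 0.26, adjusted p = 0.0395 by limma), -1.24 for Tfpi2 (SE 0.19, adjusted p = 0.00748), -2.09 for Itgax (SE 0.22, adjusted p = 0.000604) and -1.30 for Mki67 (SE 0.16, adjusted p = 0.00242), on the log2 scale as EKO minus WT. Prrx1 kept its call under 12 of 24 alternatives and Tfpi2 under 24 of 24. In 24 groups of 4 arrays, those of the 10 genes and of Lum and Prrx1, 0 arrays stood apart from the rest by Dixon's test.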

How the results depend on the processing

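Each comparison was refitted under 25 alternatives, 14 of which leave out 1 array. The count of the 10 genes called for diet in WT pads, 1 as reported, was 2 with the replicate block and with quantile normalization, 3 in the lower-background arrays, 5 with array weights, and 0 with the dimmest 50% of genes left out, which removed Fap, and with the compared groups only. Leaving out 1 array gave 0 to 1. For genotype on HFD the count, 1 as reported, was 2 with the replicate block, 4 with array weights, 0 with the dimmest 50% left out, and 1 to 2 without 1 array. For the difference between the diet effects, 0 as reported, it was 2 with array weights and 0 to 1 without 1 array, where WT_HFD replicate 1 left out brought Fap past the threshold (adjusted p = 0.021). For diet in EKO and genotype on ND it stayed at 0 throughout. Beyond the fewer genes or arrays tested, the cause was not tested.

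Same-numbered pads did not deviate together in every pair (19 pairs, r -0.593 to 0.644, median 0.2). For 54 differently numbered pairs r was -0.614 to 0.633, median -0.095. In all, 0 of 14 arrays were closest to their own number throughout, and the main fit did not take the numbers as pairs. That rule asks for a match in every group, so it cannot exclude an effect shared by some same-numbered pads. The replicate block called 1300 genes for diet in WT, against 1094 without it. With the replicate as a block, the added calls were Dpp4 for diet in WT (adjusted p = 0.0154) and Thy1 for genotype on HFD (adjusted p = 0.0171).

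Over all genes, 1094 were called for diet in WT, against 415 to 1514 without 1 array, 479 with the compared groups only, 2007 with the background block, 2152 in the lower-background arrays, 1735 with quantile normalization and 5224 with array weights. For genotype on HFD 1134 were called, against 316 to 2108 without 1 array (316 without WT_HFD replicate 3, 2108 without WT_HFD replicate 1), 1672 with the replicate block, 2033 with the background block, 1845 with quantile normalization and 6789 with array weights (3410 higher and 3379 lower). No called value of the 10 genes changed sign. Fmo2, Smpd3, Tfpi, Vcam1, Cd3e, Bmp7, Twist2, Zfp423 and the Prrx1 difference between diet effects lost their calls under 8 or more alternatives each.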
